A study of Bos taurus with 6 samples.

Results

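Tissue factor and plasminogen activation genes were examined in bovine articular chondrocytes that received the growth factor TGF-β (transforming growth factor β), which controls matrix production in cartilage. The 9 genes were F3, TFPI, TFPI2, PLAU, PLAUR, PLAT, SERPINE2, THBD and ANXA2, and each of the 11 probe sets that carried 1 of these symbols alone was taken. They were 9 of 9174 genes named on the array and 11 of the 24016 probe sets tested. The 9 genes were chosen on the same TGF-β against untreated values that are described here, so their differences are a description. Calls and intervals of these genes come from the fit over all probe sets, and nothing is inferred from them.

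RNA was measured on Affymetrix GeneChip Bovine Genome Arrays, 3 of TGF-β-treated cultures and 3 of untreated cultures. In the treated group, 5 ng/ml TGF-β1 was present for 8 hours. Untreated cultures were kept alongside, and the labels speak of a vehicle in their treatment protocol. Both groups were micromass cultures, in which chondrocytes released from the cartilage of metacarpal-phalangeal joints are plated as dense drops and lay down matrix. Cultures of 3 cows were used, whose age is not given in the sources used here, and no gene was altered in either group. The labels number the arrays 1 to 3 in each group but do not state that a number stands for a cow.

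Tissue factor, the product of F3, is a membrane protein that binds coagulation factor VII and starts the coagulation cascade, which ends in thrombin and fibrin. TFPI blocks the complex of tissue factor with its protease, and thrombomodulin, the product of THBD, turns thrombin towards anticoagulant activity. Plasminogen is cut to plasmin by urokinase (PLAU) or tissue-type activator (PLAT), and plasmin dissolves fibrin, degrades matrix and activates matrix metalloproteinases. Chondrocytes are known to make plasminogen activators, which have been studied mainly for their part in cartilage breakdown.

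The values were on the log2 scale and had been centred, so that the median of each probe set over the 6 arrays was 0. A value of 1 is therefore a doubling of the signal over that probe set's own median, and levels cannot be compared between genes. For the same reason no marker could be read as present or absent, and the cell type on the label could be followed only as shifts between arrays. Differences are TGF-β minus untreated, averaged over the 3 replicate numbers, and SE comes from a limma fit that takes the replicate number as a block (the paired fit). A probe set was called where its Benjamini-Hochberg adjusted p over all 24016 probe sets was under 0.05. On the whole array 585 probe sets were called higher, which is 2.44%, and 832 were called lower, which is 3.46%. An unadjusted p under 0.05 was found for 4720 of the 24016 probe sets in the paired fit, the number against which later counts at that threshold stand. The fit without the replicate number called 0 probe sets, with 1377 at an unadjusted p under 0.05. Hybridisation spike-ins had a median of 1.57 on TGF-β array 2 and of -0.16 to 0.05 on the other 5 arrays, while the medians of all probe sets lay between -0.01 and 0.02.

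Of the 11 probe sets, 2 were called higher with TGF-β, those of F3 and PLAUR, and 9 were not called. None was called lower in the paired limma fit. Neither F3 nor PLAUR was called in the fit without the replicate number. In the paired fit 5 of the 11 had an unadjusted p under 0.05, against 4720 of 24016 on the whole array. The mean was higher with TGF-β for 10 of the 11, against 52.5% of all probe sets, and ANXA2 was the exception. The median difference was 0.14 over the 11 probe sets and 0.01 over all probe sets. These counts rest on the contrast by which the genes were chosen, and nothing is read from them.

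**Figure D1:**
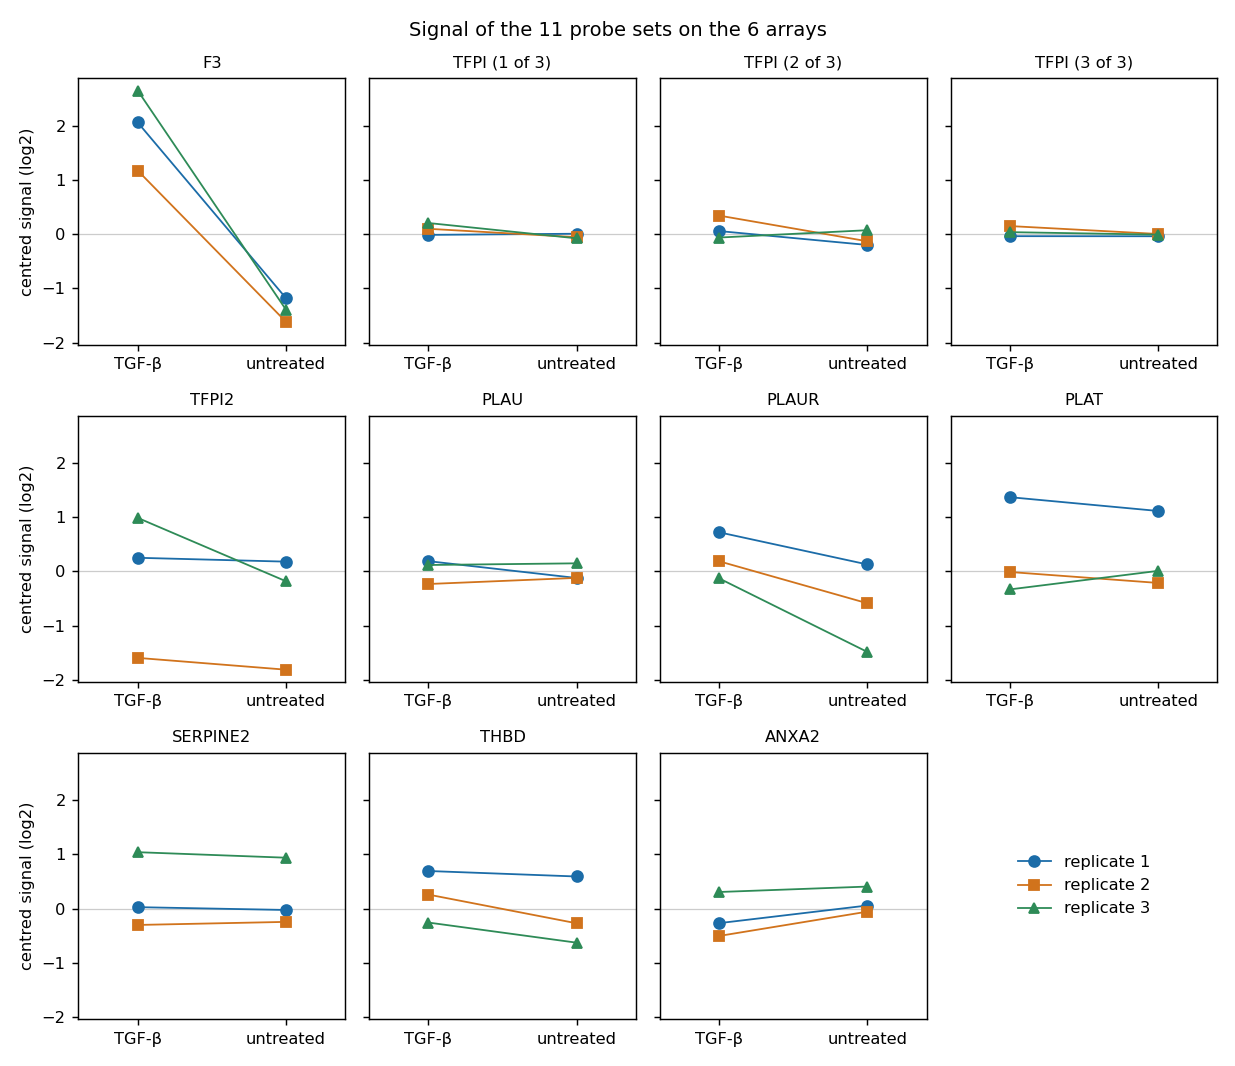
Centred log2 signal of each of the 11 probe sets (vertical axis) in TGF-β-treated and untreated cultures (horizontal axis), with 1 line for each replicate number. F3 is the only probe set whose 3 TGF-β arrays, at 1.18 to 2.66, all lie above its untreated arrays, at -1.62 to -1.18.

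F3 had by far the largest difference among the 11 probe sets. Its signal was 2.07, 1.18 and 2.66 on TGF-β arrays 1, 2 and 3, against -1.18, -1.62 and -1.39 on untreated arrays 1, 2 and 3. The groups did not overlap, and the lowest TGF-β array stood well above the highest untreated one. F3 was the only one of the 11 probe sets with every TGF-β array above every untreated array, an order found for 6.11% of all probe sets, and none of the 11 had the opposite order, found for 4.91%.

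Within the replicate numbers the F3 differences were 3.25, 2.80 and 4.05. Their mean was 3.36 (SE 0.204; SD of the 3 differences 0.635), a 10.3-fold higher signal, and the 95% interval of the paired fit was 2.90 to 3.83. In the order of all 24016 differences F3 stood 4th from the top. The mean was 3.42 without replicate 1, 3.65 without replicate 2 and 3.02 without replicate 3. F3 was called in each of these fits.

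The TGF-β arrays differed more among themselves in F3 than the untreated arrays did. The range was 1.48 over the TGF-β arrays and 0.44 over the untreated arrays. The untreated range was close to the 0.33 that was the median of all probe sets. TGF-β array 2, which had the high spike-in signal, was the lowest of the TGF-β arrays in F3, and untreated array 2 was the lowest of the untreated ones. The part of the spike-in signal in this order was not tested.

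The inhibitors of tissue factor showed much smaller differences than F3. TFPI, the Kunitz-type inhibitor that binds activated factor X and the tissue factor complex, was measured by 3 probe sets. The first had -0.01, 0.10 and 0.21 on the TGF-β arrays against 0.01, -0.05 and -0.07 on the untreated arrays. The second had 0.06, 0.35 and -0.06 on the TGF-β arrays against -0.20, -0.13 and 0.08 on the untreated arrays. The third had -0.03, 0.15 and 0.04 on the TGF-β arrays against -0.04, 0.01 and -0.01 on the untreated arrays. The groups overlapped in all 3 probe sets and none was called.

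The mean TFPI differences were 0.14 (SE 0.112), 0.20 (SE 0.134) and 0.06 (SE 0.106) in that order of probe sets. Their 95% intervals ran from -0.12 to 0.39, from -0.11 to 0.50 and from -0.18 to 0.30. The second probe set had a lower value with TGF-β in replicate 3, by -0.14, and higher values in the other numbers. The 3 probe sets are reported apart, since the first and second were designed on the same annotated source sequence and the third on another.

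TFPI2, a related Kunitz-type inhibitor that is secreted into the matrix and inhibits plasmin, varied mainly with the replicate number. Its signal was 0.25, -1.60 and 0.99 on TGF-β arrays 1, 2 and 3, against 0.18, -1.82 and -0.18 on untreated arrays 1, 2 and 3. Replicate 2 was the lowest in both groups, by more than 1 log2 unit, and the groups overlapped. The differences within numbers were 0.07, 0.22 and 1.17, with a mean of 0.49 (SE 0.195) and a fold of 1.4. The 95% interval, which is not adjusted for the number of probe sets, was 0.04 to 0.93. The probe set was not called, and without replicate 3 the mean was 0.14.

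**Figure D2:**
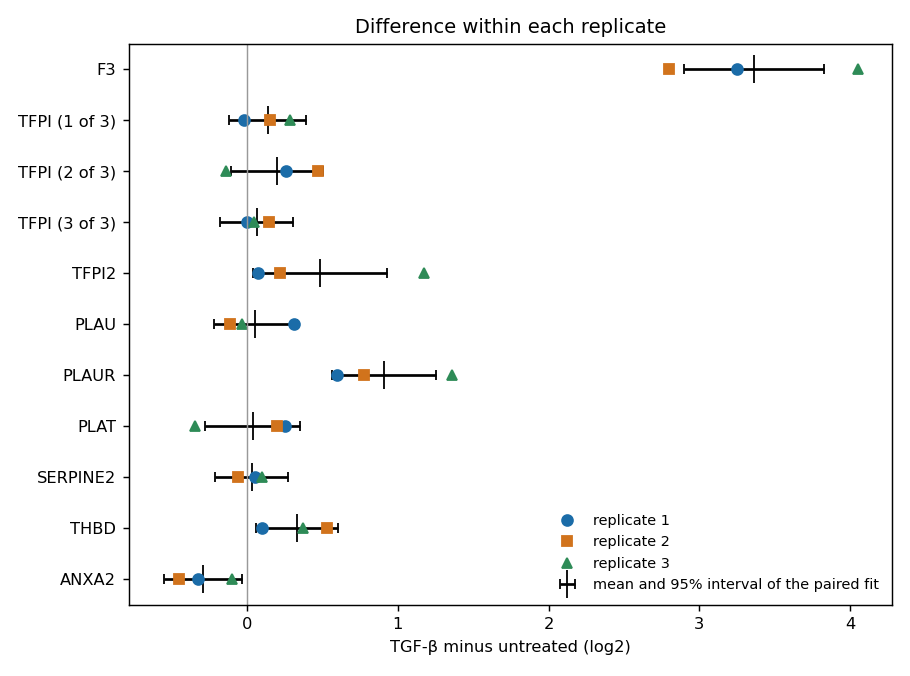
TGF-β minus untreated difference in log2 units (horizontal axis) within each replicate number (coloured points) for the 11 probe sets (rows), with the mean and 95% interval of the paired fit as a vertical mark and a bar. The mean of F3 is 3.36, that of PLAUR 0.91, and the other 9 lie between -0.29 and 0.49.

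PLAUR, the receptor that holds urokinase at the cell surface, was higher with TGF-β in every replicate number. Its signal was 0.72, 0.19 and -0.13 on TGF-β arrays 1, 2 and 3, against 0.13, -0.59 and -1.49 on untreated arrays 1, 2 and 3. The groups overlapped, since untreated array 1 lay above TGF-β array 3, but each treated array lay above the untreated array of its own number. Replicate 1 was the highest and replicate 3 the lowest number in both groups.

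The PLAUR differences were 0.59, 0.78 and 1.36, with a mean of 0.91 (SE 0.151; SD of the 3 differences 0.400) and a fold of 1.88. The 95% interval of the paired fit was 0.57 to 1.25. The mean was 1.07 without replicate 1, 0.98 without replicate 2 and 0.69 without replicate 3, and the call was lost without replicate 2. It was also lost with the replicate number as a random effect. The untreated arrays alone spanned 1.62, wider than in 96.9% of all probe sets.

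PLAU, the urokinase that PLAUR binds, was not called. Its signal was 0.19, -0.23 and 0.12 on TGF-β arrays against -0.12, -0.12 and 0.15 on untreated arrays. The treated arrays lay on both sides of the untreated ones. The differences were 0.31, -0.11 and -0.03, with a mean of 0.06 (SE 0.121) and a 95% interval of -0.22 to 0.33.

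PLAT, the tissue-type plasminogen activator, was high in replicate 1 of both groups. Its signal was 1.37, -0.01 and -0.33 on TGF-β arrays 1, 2 and 3, against 1.12, -0.21 and 0.01 on untreated arrays 1, 2 and 3. The differences were 0.26, 0.20 and -0.34, with a mean of 0.04 (SE 0.138) and a 95% interval of -0.28 to 0.35. The sign of this mean turned when replicate 1 or 2 was left out, and it has no settled direction.

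SERPINE2, which encodes protease nexin 1, a serpin that inhibits thrombin, urokinase and plasmin, showed the smallest difference of the 11 probe sets. Its signal was 0.03, -0.30 and 1.04 on TGF-β arrays 1, 2 and 3, against -0.03, -0.25 and 0.94 on untreated arrays 1, 2 and 3. Each pair of arrays with 1 number lay close together, and replicate 3 was the highest in both groups. The mean difference was 0.03 (SE 0.106), with a 95% interval of -0.21 to 0.27.

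THBD, thrombomodulin, had 0.69, 0.26 and -0.26 on TGF-β arrays 1, 2 and 3, against 0.59, -0.27 and -0.63 on untreated arrays 1, 2 and 3. The groups overlapped, and as in PLAUR replicate 1 was the highest and replicate 3 the lowest number in both. The differences were 0.10, 0.53 and 0.37, with a mean of 0.33 (SE 0.120) and a fold of 1.26. The unadjusted 95% interval was 0.06 to 0.61, and the probe set was not called.

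ANXA2, which encodes annexin A2, a surface protein that docks plasminogen and tissue-type activator, was the 1 gene with a lower mean. Its signal was -0.27, -0.51 and 0.31 on TGF-β arrays 1, 2 and 3, against 0.06, -0.06 and 0.41 on untreated arrays 1, 2 and 3. The treated array was the lower one in each number although the groups overlapped. The mean difference was -0.29 (SE 0.115), a fold of 0.817. The unadjusted 95% interval was -0.55 to -0.03, and the probe set was not called.

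The replicate number accounted for more of the spread over the 6 arrays than treatment did in 8 of the 11 probe sets, against 78.2% of all probe sets. F3 stood at one end, with 93.4% of its sum of squares between the treatments and 4.4% between the numbers. SERPINE2 stood at the other, with 99.5% between the numbers, followed by PLAT with 95.8% and TFPI2 with 88.5%. PLAUR was divided, with 42.5% between the treatments and 52.1% between the numbers. In 7 of the 11 probe sets the untreated arrays spanned more than the array median of 0.33, and TFPI2, at 2.0, spanned more than 98.2% of all probe sets.

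**Figure D3:**
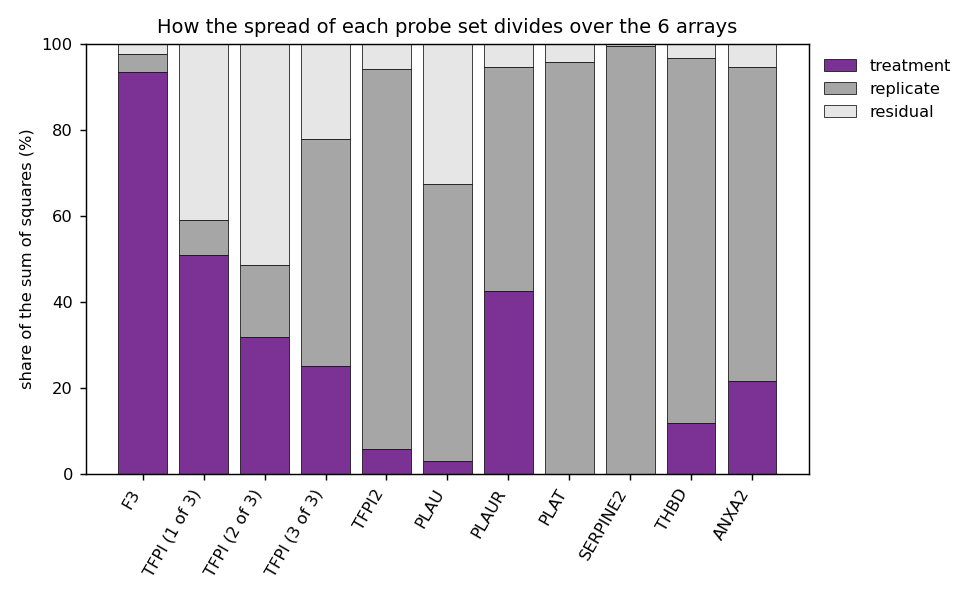
Share of the sum of squares over the 6 arrays, in percent (vertical axis), that lies between treatments, between replicate numbers and in the residual, for each of the 11 probe sets (bars). Treatment takes 93.4% in F3 and 42.5% in PLAUR, and the replicate number takes 99.5% in SERPINE2.

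The genes did not follow the replicate number in 1 common way. PLAUR, PLAT and THBD were highest in replicate 1 of both groups, SERPINE2 and ANXA2 in replicate 3, and TFPI2 was lowest in replicate 2. Over the 6 arrays, which share their numbers in pairs, Pearson's r was 0.90 between PLAUR and THBD, 0.84 between PLAT and THBD, and 0.85 between SERPINE2 and ANXA2. F3 and PLAUR had an r of 0.63. With 6 arrays in 3 pairs these are descriptions only. The difference within numbers was highest in replicate 3 for F3, PLAUR, TFPI2, SERPINE2 and the first TFPI probe set. Both replicate 3 arrays also had the widest spread over all probe sets. Their SD was 0.44 with TGF-β and 0.47 untreated, against 0.23 to 0.33 on the other arrays.

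Markers of chondrocytes and of other cell types were also read by replicate number. These are bulk cultures, in which fewer cells of a type and less RNA per cell cannot be told apart. Of 24 probe sets of 10 chondrocyte markers, 23 on the TGF-β arrays and 22 on the untreated arrays were highest in replicate 2, the number with the lowest TFPI2. Their summed signal was -10.2 to 15.8 on the TGF-β arrays and -6.49 to 20.5 on the untreated arrays. Between the treatments 2 were called higher, both of COMP, and 5 lower, 4 of COL11A1 and 1 of CNMD. The other COL11A1 probe sets had -0.41, -0.33 and 0.02 and were not called. On the whole array 2.44% were called higher and 3.46% lower, and the calls of every marker list stand against these shares. The replicate 2 order was not particular to chondrocyte markers. Of 13 fibroblast and synovial probe sets, 11 were highest in replicate 2 in both groups. Of 7 platelet and blood probe sets it was 6 on the TGF-β arrays and 3 on the untreated arrays. Of 17 endothelial probe sets it was 7 and 6, and of 8 smooth muscle and pericyte probe sets 4 and 1. The share of all probe sets that were highest in replicate 2 was not counted.

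The monocyte and macrophage markers were followed because these cells can carry tissue factor and the urokinase receptor. Of 12 probe sets of 8 genes, 0 were called in the paired limma fit, with 1 at an unadjusted p under 0.05, and their sums were -0.37 to 3.87 on the TGF-β arrays and -1.60 to 3.90 on the untreated arrays. The highest sum was that of replicate 1 in both groups, and it came mainly from CD68, at 1.47 on the TGF-β array and 1.38 on the untreated one, and from the 2 probe sets of CD14, at 0.92 and 1.45 on the TGF-β array and 0.96 and 1.41 on the untreated one. By count, 4 of the 12 probe sets were highest in replicate 1 and 7 in replicate 2 on the TGF-β arrays, against 7 in replicate 1 and 3 in replicate 2 on the untreated arrays. PLAUR, PLAT and THBD were highest in replicate 1. The 3 probe sets of PTPRC, the pan-leukocyte marker, varied little, from -0.14 to 0.08 on the TGF-β arrays and from -0.18 to 0.01 on the untreated arrays. The part of these cells in the signal of the 3 genes was not tested.

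Endothelial cells carry thrombomodulin, tissue-type activator and TFPI. Their 17 probe sets of 10 genes summed to -0.78 to 3.09 on the TGF-β arrays and -0.87 to -0.16 on the untreated arrays. Of the 17, 1 was called, a probe set of FLT1 that was higher (0.77, adjusted p = 0.0285 by limma). The other 2 of FLT1 had 0.14 and 0.03. The FLT1 call was lost without replicate 1 or replicate 3. Of 13 fibroblast and synovial probe sets 2 were called lower, both of COL1A2, and the sums were -9.54 to 4.15 on the TGF-β arrays and -6.25 to 4.36 on the untreated arrays. Of 8 smooth muscle and pericyte probe sets 2 were called lower, both of CSPG4, whose other probe set had -0.08 and was not called. The sums were -0.46 to 0.84 on the TGF-β arrays and 0.56 to 1.86 on the untreated arrays. Of 7 platelet and blood probe sets 0 were called by limma, with 1 at an unadjusted p under 0.05, and the sums were -0.36 to 1.18 on the TGF-β arrays and -0.35 to -0.11 on the untreated arrays. Among all the marker calls, those of 2 COL11A1 probe sets stood whichever replicate was left out, and each of the others was lost without at least 1 replicate. After quantile normalization the chondrocyte markers had 0 higher and 3 lower calls, and both COMP calls were lost (adjusted p = 0.0653 and 0.0849 by limma). The endothelial markers then had 1 higher call, the smooth muscle and pericyte markers 1 lower, and the fibroblast and synovial markers 0. The part of any of these cells in the signal of the 9 genes was not tested.

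The genes whose 6 values were most like those of F3 were sought over all named probe sets. PTHLH, parathyroid hormone-related protein, came first, with a Pearson's r of 0.997 over the 6 arrays. It had 1.26, 0.70 and 1.51 on TGF-β arrays 1, 2 and 3, against -0.70, -0.92 and -1.02 on untreated arrays 1, 2 and 3, a difference of 2.04 (SE 0.164). As in F3, TGF-β array 2 was the lowest and array 3 the highest of the treated arrays. GFPT1, the first enzyme of hexosamine synthesis, had an r of 0.994 and a difference of 0.73 (SE 0.122). B3GALNT2, a glycosyltransferase, had an r of 0.992 and a difference of 1.14 (SE 0.106).

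TSKU, a small leucine-rich proteoglycan, had an r of 0.986 with F3 and a difference of 0.65 (SE 0.104). The fifth gene was ADTRP, whose product is known to regulate TFPI in human endothelial cells, with an r of 0.985. Its difference was small, 0.13 (SE 0.104), and was not called (adjusted p = 0.556 by limma). The arrays share 1 treatment and 3 numbers, so a high r says only that the 6 values have the same shape, not that they have the same size.

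**Figure D4:**
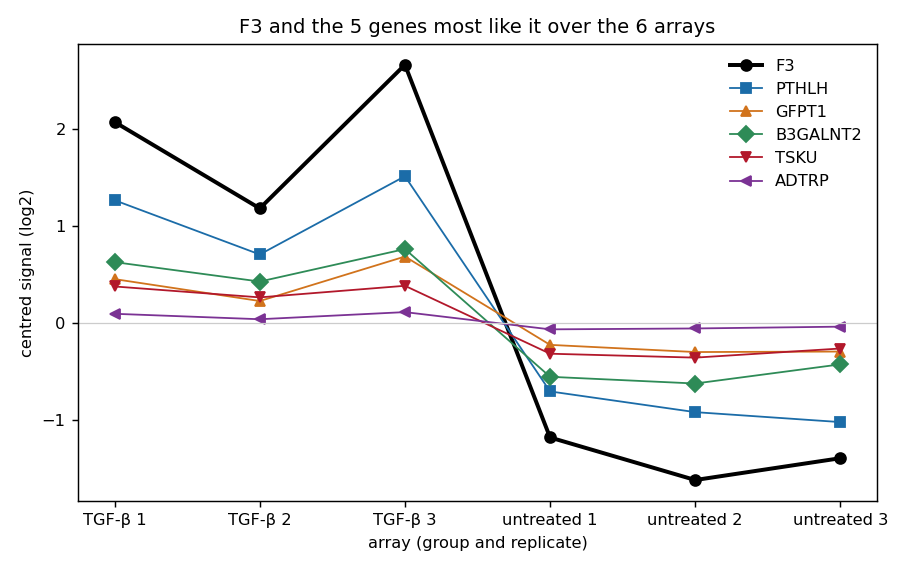
Centred log2 signal (vertical axis) of F3 and of the 5 genes with the highest Pearson's r with it, on each of the 6 arrays (horizontal axis); the lines join the values of a gene and imply no order of arrays. All 6 genes are higher on the TGF-β arrays, and F3 has the widest separation, at 1.18 to 2.66 against -1.62 to -1.18.

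Genes that act with the 9 were read from lists, whose counts stand against the 2.44% called higher and 3.46% called lower on the whole array. Of the coagulation factors and cofactors, 14 of 20 genes were measured by 23 probe sets, of which 1 was called higher and 0 lower. The median difference was 0.03. The called probe set belonged to F13A1, the subunit of factor XIII that crosslinks fibrin, with 0.04, 1.36 and -0.04 on TGF-β arrays 1, 2 and 3, against -0.45, 0.24 and -0.45 on untreated arrays 1, 2 and 3. Its difference was 0.67 (SE 0.150, adjusted p = 0.0345 by limma), and the other 2 probe sets of the gene had 0.42 and 0.33 and were not called. The call was lost without replicate 1 (adjusted p = 0.0519) and without replicate 2 (adjusted p = 0.131). VKORC1, which recycles vitamin K for the clotting factors, had -0.18 (adjusted p = 0.429).

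The protease-activated receptors pass the signal of thrombin and of the tissue factor complex into cells. The 7 probe sets of 3 of these 4 genes had 0 calls in limma, with 1 at an unadjusted p under 0.05, and a median difference of 0.00. F2RL2, a thrombin-responsive receptor, was measured by 3 probe sets. The one with the smallest p had 2.58 on TGF-β array 3 and 3.34 on untreated array 3 against -0.31 to 0.14 on the other 4 arrays, and its difference was -0.40 (adjusted p = 0.183). The second was also highest in replicate 3, at 0.94 on the TGF-β array and 1.05 on the untreated array, with a difference of -0.18, while the third had 0.21 on TGF-β array 3 and -0.25 on untreated array 3 and a difference of 0.08. F2RL1, the receptor that tissue factor complexes can activate, had a difference of 0.19 (adjusted p = 0.499).

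The anticoagulants and their receptors were measured by 11 probe sets of 7 of 10 genes. None was called in limma, with 1 at an unadjusted p under 0.05, and the median difference was 0.02. PROCR, the endothelial protein C receptor that acts beside thrombomodulin, had -0.29 (adjusted p = 0.188). PROS1, protein S, a cofactor of activated protein C and of TFPI, had -0.21 (adjusted p = 0.359) in 1 probe set and -0.16 in the other.

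The rest of the plasminogen system gave 0 calls among 14 probe sets of 7 of 11 genes in limma, with 1 at an unadjusted p under 0.05. The median difference was 0.06. THBS1, thrombospondin 1, which binds plasminogen and activates latent TGF-β, had the smallest p, with a difference of 0.34 (adjusted p = 0.119). That probe set had 0.07, 0.11 and 0.38 on TGF-β arrays 1, 2 and 3, against -0.12, -0.27 and -0.07 on untreated arrays 1, 2 and 3, with no overlap. The other THBS1 probe sets lay between -0.16 and 0.28. HRG, histidine-rich glycoprotein, a plasma protein that binds plasminogen, had 0.18 (adjusted p = 0.548).

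The list of plasminogen receptors and annexin A2 partners gave 3 lower calls and 0 higher among 14 probe sets of 8 of 9 genes. Its median difference was -0.13. Both probe sets of ANXA11 fell. The first had -0.39, -0.65 and -1.13 on TGF-β arrays 1, 2 and 3, against 1.03, 0.92 and 0.39 on untreated arrays 1, 2 and 3, with no overlap. Its difference was -1.50 (SE 0.106, adjusted p = 0.000284 by limma) and that of the second -0.99 (SE 0.116, adjusted p = 0.00242).

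ANXA1 fell by 0.70 (SE 0.132, adjusted p = 0.0179), a call lost without replicate 1 (adjusted p = 0.0977) and without replicate 2 (adjusted p = 0.0985). ANXA11 and ANXA1 are calcium-dependent phospholipid-binding proteins of the annexin family and are not the plasminogen receptors of the list. S100A10, the partner of annexin A2 at the cell surface, was looked at because ANXA2 had a lower mean. It was chosen after its values were seen, and it had -0.21 in both probe sets, neither of them called (adjusted p = 0.319 and 0.344).

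The partners and clearance receptors of the activators gave 1 higher call among 29 probe sets of 12 of 14 genes. The median difference was 0.06. The call was for ITGA5, the fibronectin receptor subunit with which the urokinase receptor associates. It had 0.60, -0.39 and 1.39 on TGF-β arrays 1, 2 and 3, against -0.94, -1.47 and 0.39 on untreated arrays 1, 2 and 3. The groups overlapped through replicate 3, the highest number in both groups. The difference was 1.21 (SE 0.131, adjusted p = 0.00163 by limma), and it was 0.09 and 0.06 in the other 2 probe sets of ITGA5, which were not called. IGF2R, which binds the urokinase receptor and plasminogen, had -0.41 (adjusted p = 0.0655).

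The other serpins and Kunitz inhibitors gave 3 lower calls and 0 higher among 19 probe sets of 12 of 15 genes, with a median difference of -0.08. SERPINB8 fell by 0.62 (SE 0.105, adjusted p = 0.0115). SERPINB9, an inhibitor of granzyme B, fell by 0.48 in 1 probe set (adjusted p = 0.0466) and had 0.19 and 0.03 in the other 2. SERPINA1, the inhibitor of neutrophil elastase, fell by 0.44 in 1 probe set (adjusted p = 0.0485) and had -0.38 in the other (adjusted p = 0.0784). Each of the 3 calls was lost without replicate 1 and without replicate 2, with adjusted p of 0.0507 to 0.2 by limma, and that of SERPINA1 also without replicate 3 (adjusted p = 0.142). After quantile normalization the calls of F13A1 (adjusted p = 0.0853), ANXA1 (0.09), SERPINB8 (0.054), SERPINB9 (0.0858) and SERPINA1 (0.106) were lost, and those of ANXA11 and ITGA5 were kept. With the replicate number as a random effect, both probe sets of ANXA11 kept their call, and no other probe set of the lists beside the 9 genes was called.

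The matrix metalloproteinases that plasmin can activate had 0 calls among 11 probe sets of 6 genes in limma, with 0 at an unadjusted p under 0.05. The median difference was 0.11. MMP1, interstitial collagenase, had 1.12, 0.27 and -0.27 on TGF-β arrays 1, 2 and 3, against 0.93, -0.41 and -0.28 on untreated arrays 1, 2 and 3, a difference of 0.29 (adjusted p = 0.306). MMP3, stromelysin 1, had 0.12 (adjusted p = 0.607) in the probe set with the smallest p. Replicate 1 was the highest number of MMP1 and of all 3 MMP3 probe sets in both groups, as it was for PLAUR, PLAT and THBD. The other metalloproteinases did not share this order. MMP2 was highest in replicate 3, at 0.87 on the TGF-β array and 0.89 on the untreated array. No probe set of MMP9, MMP13 or MMP14 was highest in replicate 1 of both groups.

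**Figure D5:**
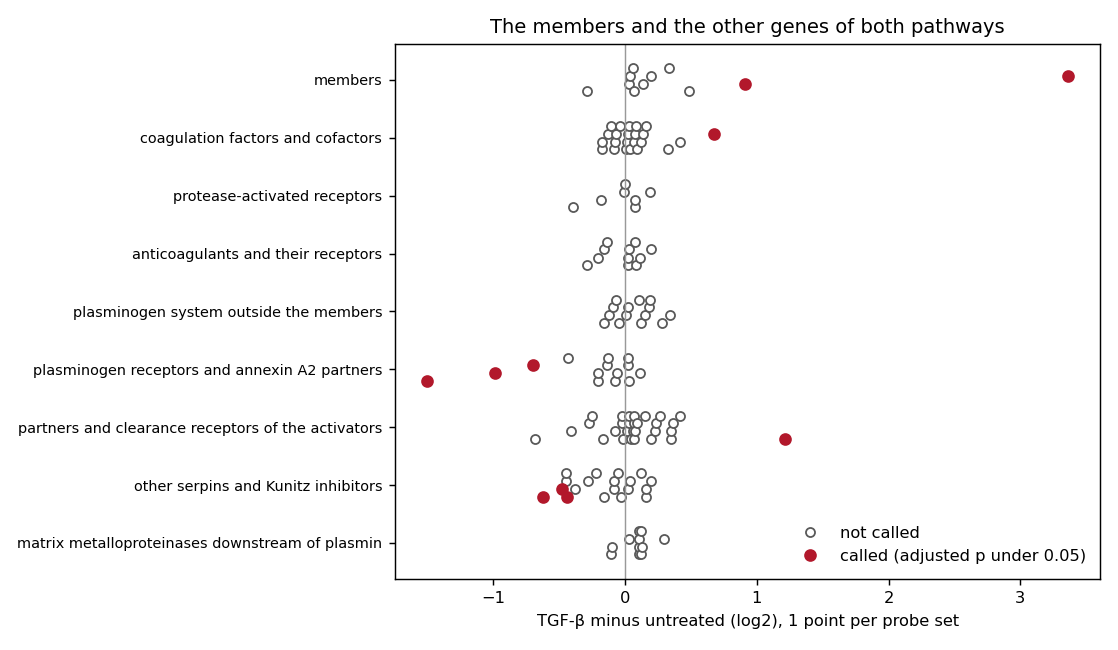
TGF-β minus untreated difference in log2 units (horizontal axis) of each probe set (points) of the 9 genes (top row) and of 8 lists of related genes (rows below), with called probe sets filled. F3 at 3.36 and PLAUR at 0.91 lie to the right, ITGA5 at 1.21 and F13A1 at 0.67 are the only other filled points above 0, and ANXA11 at -1.50 is the lowest.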

How the data were processed

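The authors made the deposited log2 values in GeneSpring (version not given in the sources used here) by Robust Multichip Average, that is background subtraction, joint normalization of the arrays and a summary of the probes of each probe set. The RNA had been amplified before labelling. The values are centred (no probe set's median over the 6 arrays exceeded 5.0e-07 in size), so absolute levels are lost and dim probe sets could not be filtered out. Of 24128 probe sets, 112 controls were left out and 24016 tested. The array annotation gave 1 symbol to 13292 (13263 matched to a current symbol by Entrez ID) and several to 86, 24 were named only by the study, and 10614 had none. There were 0 columns of other samples, and no array was a copy of another. Precision is limited by 3 arrays per group.

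The 2-sided test was limma 3.58.1 in R 4.3.3 (statmod 1.5.0 for the random block), with the replicate number as a fixed term, Benjamini-Hochberg adjusted over probe sets. Deviations from the group means correlated with r of 0.694 to 0.845 between arrays of 1 number and -0.683 to 0.185 between other numbers, and per the study each cow gave both a treated and an untreated culture. The fit was tested on simulated data, with 200 changed probe sets in each of 10 draws. Of simulated log2 changes of 0.5 it called 11%, and of changes of 1 it called 94.8%. Of its calls 6.7% were false. A probe set that was not called may therefore still have changed by a small amount. The simulated noise was independent between probe sets, and the 200 changed probe sets were fewer than the 1417 called on the real arrays. The rates on the real arrays may differ from these. The genes, lists and tests were chosen with earlier results of these data known. Besides the 9 genes, the text names each list gene with a called probe set, the 2 genes of smallest p in each list other than marker lists, and the 5 genes most like F3. CD14, CD68 and PTPRC were named after their values were seen. Alternatives were other fits, scalings, gene means and leaving out each replicate. Promoter and protein sequences were not analysed here. Figures were drawn with matplotlib 3.10.9.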

Additional observations from a re-analysis of the deposited data

How the results depend on the processing

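All fits rest on 3 arrays per group, and centred values allow no limit on dim probe sets. Without the replicate block 0 probe sets were called higher and 0 lower in the limma fit (1377 at an unadjusted p under 0.05), and 0 of the 11 probe sets of the 9 genes were called. The methods' unequal-variance test also gave 0 higher, 0 lower and 0 of the 11 (1032 at an unadjusted p under 0.05), and the paired test without moderation gave 0 higher, 0 lower and 0 of the 11 (2802). These calls use the adjusted p, which the study's gene list did not. At the study's cut, an unadjusted p under 0.05 and at least a 2-fold change, the unequal-variance test gave 65 probe sets higher and 62 lower. With the replicate block as a random effect 148 were called higher and 164 lower, and 1 of the 11, F3. Quantile normalization gave 377 higher and 443 lower, and gene means gave 218 higher and 431 lower of 9174 genes; with both, F3 and PLAUR were called. Leaving out 1 replicate gave 272 to 590 higher, 267 to 747 lower and 1 to 2 of the 11 called higher; PLAUR lost its call without replicate 2.

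No alternative that was run called any of the 11 lower. Of 121 differences of the 11 probe sets under the alternatives, 108 kept their direction and their side of the threshold, 8 lost a call, those of F3 and PLAUR, and 5 turned sign. PLAT turned to -0.0525 with quantile normalization and ranged from -0.070 to 0.23 with 1 replicate left out. PLAU ranged from -0.072 to 0.14 and SERPINE2 from -0.0023 to 0.077 in the same way. The cause of these turns was not tested.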
